A study of Rattus norvegicus with 13 samples.

Results

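The enzymes described here carry out the β-oxidation of fatty acids. They are the 9 genes Cpt1a, Cpt2, Acadm, Acadl, Echs1, Hadha, Hadhb, Acaa2 and Ehhadh, taken as every probe set that the platform annotation assigns to 1 of these symbols alone. The rule gave 10 probe sets, with 2 for Cpt1a and 1 for each other gene, out of 15923 probe sets and 10412 named genes on the array. RNA of rat kidney glomeruli, the capillary tufts that filter blood, was hybridised to 13 one-colour arrays. All rats were untreated Lewis-Hsd rats on a regular diet and 18 weeks old. The LCM20 group (n = 4) and the LCM800 group (n = 5) held glomeruli cut by laser capture microdissection from frozen kidney sections of 10 µm, with 2 rounds of RNA amplification. The protocol names about 800 glomerular cross-sections for both of these groups, and what the number 20 in the titles stands for is not stated. The sieved group (n = 4) held unamplified RNA of glomeruli from the opposite kidney, which had been perfused with iron oxide, isolated by sieve and magnet. Titles call the replicates biological, but no label ties a replicate number to a rat. One protocol text also mentions anti-Thy1.1 rats and the description field speaks of embryos; neither matches the other labels.

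In β-oxidation a fatty acid is first bound to coenzyme A and handed to carnitine, so that it can enter the mitochondrion. There the chain is shortened in repeated cycles of oxidation, hydration, a further oxidation and cleavage, each cycle releasing acetyl-CoA. Peroxisomes run a similar cycle on substrates such as very long and dicarboxylic chains. In the kidney the proximal tubule, whose cells are rich in mitochondria and reabsorb most of the filtrate, is known for its reliance on this pathway.

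Several arrays stood apart from their group. Over the 11106 probe sets tested, LCM800 replicates 1 to 3 correlated with each other at r = 0.893 to 0.930 and replicates 4 and 5 at 0.937, but replicates 1 to 3 correlated with replicates 4 and 5 at 0.718 to 0.812. Replicates 4 and 5 correlated with the LCM20 arrays at 0.855 to 0.907. Sieved replicate 3 correlated with the other sieved arrays at 0.873 to 0.897, against 0.964 to 0.984 among those. These are correlations across genes, which are not independent replicates. The median signal per array lay between 236 and 321 intensity units. Precision is limited by there being 4 or 5 arrays in a group.

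The labelled tissue was checked against 5 marker lists. Podocyte markers were present in every group, with a summed signal over 7 of 9 listed genes of 34459 to 52041 in LCM20, 39107 to 70106 in LCM800 and 18224 to 45686 in sieved arrays. These genes split: 3 rose and 1 fell in LCM20, and 3 rose and 2 fell in LCM800. As background for all marker counts, 19.2% of all tested probe sets were lower and 26.2% higher in LCM20. For LCM800, 20.1% were lower and 31.8% higher. Proximal tubule markers had a summed signal over 20 of 22 listed genes of 24302 to 70219 in LCM20 and 30015 to 60649 in LCM800, against 104110 to 188726 in sieved arrays. Of these 20 genes, 19 fell in LCM20, and 19 fell and 1 rose in LCM800, with median changes of −3.14 in LCM20 and −3.19 in LCM800. The 1 that rose, Pck1, averaged 16620 in LCM20 and 23680 in LCM800, against 10957 in sieved arrays. It makes up a large part of the microdissected sums, which therefore understate the difference of the other genes. Lrp2, the endocytic receptor megalin of the proximal tubule, averaged 3655 ± 422 in LCM20 and 2794 ± 609 in LCM800, against 12167 ± 2874 in sieved arrays (SD). Markers of the loop, distal tubule and collecting duct (9 of 10 listed genes) summed to 4427 to 11443 in LCM20 and 12881 to 20130 in LCM800, against 18030 to 39423 in sieved arrays; 7 of 9 fell in LCM20, and 5 fell and 1 rose in LCM800. Glomerular endothelial markers (7 of 9) summed to 18646 to 25721 in LCM20, 12626 to 16205 in LCM800 and 4282 to 15441 in sieved arrays, and the 6 mesangial markers to 1085 to 2182, 1587 to 3228 and 714 to 2804 in the same groups. No marker was at 0 in any group. These tubule values were lower in the same group comparisons as the lower β-oxidation signals described below. Their relation array by array and their part in those results were not tested. In such bulk RNA, fewer cells of a type and less RNA per cell cannot be told apart.

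The amplified arrays also differed in the 3′ and 5′ control probe sets, which read the ends of the same transcript. The 3′ minus 5′ log2 signal of Actb was 1.80 ± 0.45 in LCM20 and 2.77 ± 1.03 in LCM800, against 0.55 ± 0.02 in sieved arrays (SD; exact two-sided permutation test, adjusted p = 0.0381 for each, adjusted over 4 tests). For Gapdh it was 1.14 ± 1.38 in LCM20 and 1.22 ± 0.49 in LCM800, against 0.52 ± 0.15 in sieved arrays (exact permutation test, adjusted p = 0.543 and 0.0381). The calls for Actb ended without any 1 sieved array (adjusted p = 0.0714) and with 4 times the pseudocount (adjusted p = 0.0571). With 1 array fewer the exact test has fewer arrangements, and why these calls ended was not tested. In the full set every microdissected Actb value (1.33 or more) lay above every sieved value (0.57 or less). A value above 0 means less signal from the 5′ end. The part of transcript length or amplification in the results below was not tested, and microdissection and amplification cannot be told apart in this design.

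A change is a group's mean log2(signal + 65.29) less that of the group it is compared with, ± the fit's SE, with adjusted p values from limma. The pseudocount makes the change of a dim gene smaller than the ratio of its signals. Ehhadh and Cpt2 lay at the 24.8 and 22.4 percentile of mean log2 over all arrays, below the filter that left out the lowest 30%, so their tests come from the fit with no filter over 15866 probe sets.

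The lower signals in microdissected glomeruli were uneven across the pathway. In LCM20 against sieved, 4 of the 8 probe sets that passed the filter fell and 0 rose, where 19.2% of all tested probe sets were lower and 26.2% higher. In LCM800 against sieved, 5 of 8 fell and 0 rose, where 20.1% were lower and 31.8% higher. With no filter 6 of 10 fell in LCM20 and 7 of 10 in LCM800, against 17.0% and 17.6% of all probe sets. The median change of the 8 was −0.56 in LCM20 and −0.71 in LCM800, beside 0.17 and 0.22 over all tested probe sets. Both comparisons use the same sieved arrays. The LCM20 count was 2 of 8 without sieved replicate 4, without LCM20 replicate 1 or without LCM20 replicate 2. Without sieved replicate 3, 5 of 8 fell in each comparison, and LCM800 had 5 of 8 without its replicates 4 and 5 and 4 of 8 without its replicates 1 to 3. The ranges of signal over arrays did not overlap, with the microdissected group lower, for 5 of 10 probe sets in each comparison. Of the 8 that passed the filter this was 3 in each, beside 43.8% of all tested probe sets apart in either direction for LCM20 and 42.8% for LCM800.

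**Figure D1:**
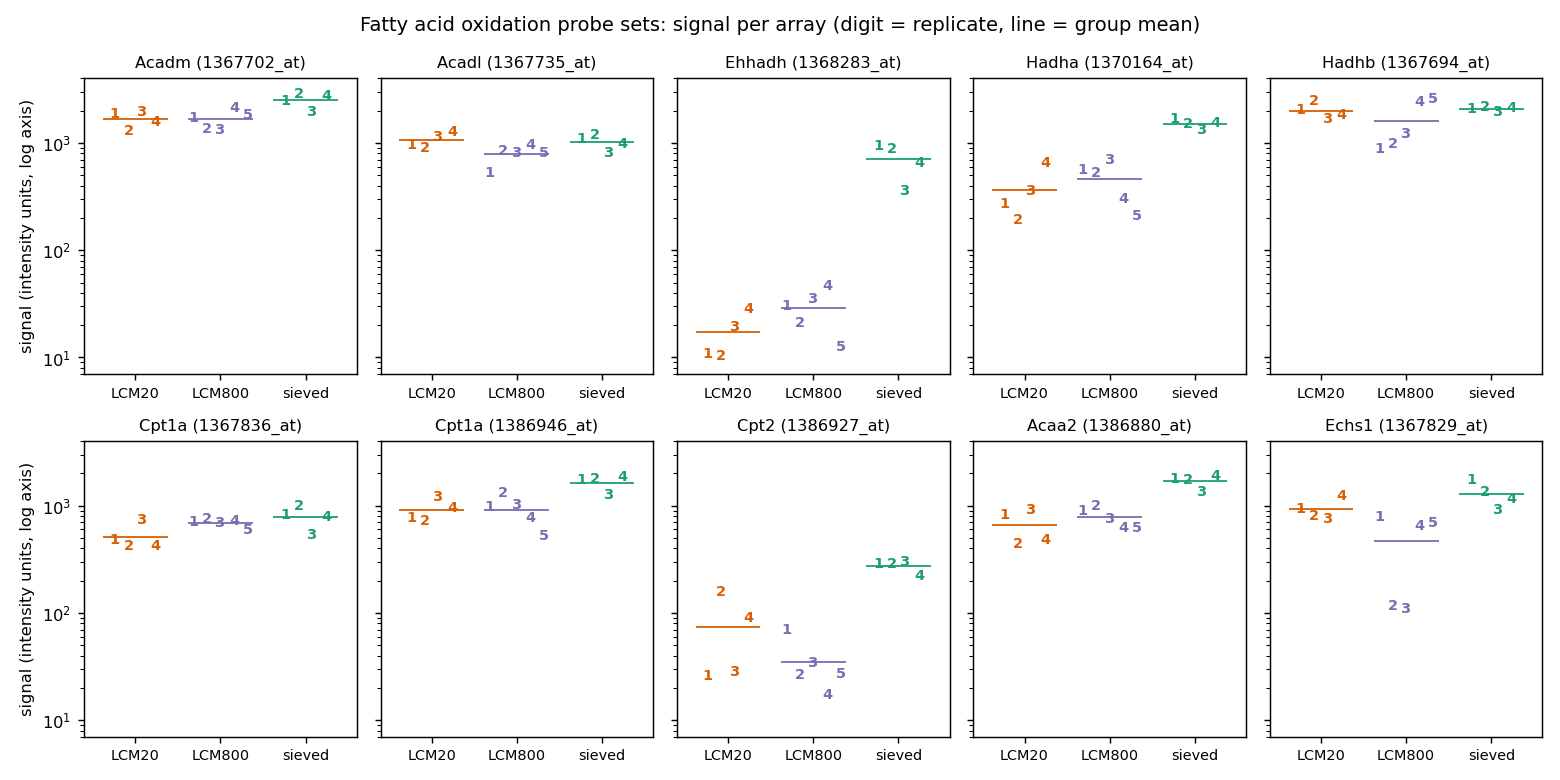
Signal of the 10 probe sets of the 9 β-oxidation genes in each array, in intensity units on a log axis, by group (LCM20, LCM800, sieved); each digit marks an array by its replicate number and lines are group means. Ehhadh sits between 10.2 and 46.6 in the 9 microdissected arrays and between 360 and 939 in the sieved arrays, while the Acadl and Hadhb ranges overlap.

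Carnitine shuttle enzymes come first in the pathway. Cpt1a, the outer membrane carnitine palmitoyltransferase that controls entry of long chains into the mitochondrion, had 2 probe sets. Probe set 1386946_at of Cpt1a gave 771, 720, 1212 and 952 in LCM20 and 982, 1324, 1009, 764 and 525 in LCM800, against 1729, 1757, 1252 and 1844 in sieved arrays. All LCM20 values lay under all sieved values; in LCM800 only replicate 2 exceeded a sieved array, sieved replicate 3. This Cpt1a probe set fell by 0.82 ± 0.26 in LCM20 (adjusted p = 0.0193) and fell by 0.84 ± 0.25 in LCM800 (adjusted p = 0.0108). Without sieved replicate 4, LCM20 replicate 1 or LCM20 replicate 2 the LCM20 change was −0.76, −0.75 or −0.72 and no longer passed (adjusted p = 0.0538, 0.0511 and 0.0563). The LCM800 change was −0.55 without LCM800 replicates 4 and 5 and did not pass (adjusted p = 0.0531).

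The other probe set of Cpt1a, 1367836_at, did not pass in either comparison. Its signals were 475, 423, 732 and 424 in LCM20 and 698, 748, 685, 713 and 591 in LCM800, against 826, 1000, 533 and 778 in sieved arrays, with all 3 groups overlapping. The changes for Cpt1a 1367836_at were −0.55 ± 0.22 in LCM20 (adjusted p = 0.0506) and −0.15 ± 0.21 in LCM800 (adjusted p = 0.565; 95% interval −0.59 to 0.29). The LCM20 value passed in 7 alternatives, among them those without sieved replicate 3 or without LCM20 replicate 3, where it was −0.71 and −0.72.

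Cpt2, the inner membrane enzyme that turns acylcarnitine back into acyl-CoA, lay near the array median in sieved arrays (260 to 268 intensity units) and far under it in the microdissected ones. It gave 26, 155, 27.9 and 89.8 in LCM20 and 69.6, 26.1, 34.3, 17.1 and 26.9 in LCM800, against 284, 288, 297 and 221 in sieved arrays. Every microdissected array was under every sieved array, and within LCM20 replicates 2 and 4 were well above the others. In the fit with no filter Cpt2 fell by 1.37 ± 0.26 in LCM20 (adjusted p = 0.000932) and fell by 1.77 ± 0.25 in LCM800 (adjusted p = 5.86e-05). The call held in every alternative run, but the size depends on the pseudocount: with none the Cpt2 change was −2.26 in LCM20 and −3.13 in LCM800, and with 4 times the pseudocount it was −0.68 in LCM20 and −0.85 in LCM800.

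The acyl-CoA dehydrogenases, which start each cycle, had smaller changes. Acadm, the medium-chain enzyme, gave 1860, 1299, 1961 and 1556 in LCM20 and 1721, 1352, 1329, 2109 and 1820 in LCM800, against 2455, 2878, 1957 and 2735 in sieved arrays. Sieved replicate 3 was the lowest of its group and lay within the microdissected values, so the ranges overlapped. Acadm fell by 0.57 ± 0.23 in LCM20 (adjusted p = 0.0493) and fell by 0.58 ± 0.21 in LCM800 (adjusted p = 0.0331). Both calls were close to the threshold and ended in 9 and 8 of the alternatives, with adjusted p values up to 0.134 and 0.290. Neither call held without sieved replicate 1, 2 or 4; the LCM20 call also ended without LCM20 replicate 1, 2 or 4, and the LCM800 call without LCM800 replicate 2 or 3.

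Acadl, the long-chain dehydrogenase of rodents, gave 965, 907, 1150 and 1259 in LCM20 and 525, 837, 814, 960 and 814 in LCM800, against 1086, 1189, 813 and 979 in sieved arrays. The 3 groups overlapped. The Acadl change was 0.07 ± 0.22 in LCM20 (95% interval −0.39 to 0.53; adjusted p = 0.809) and −0.35 ± 0.20 in LCM800 (−0.78 to 0.08; adjusted p = 0.163), and neither passed.

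Echs1, the short-chain enoyl-CoA hydratase of the next step, split the LCM800 arrays. Its signal was 117 and 109 in LCM800 replicates 2 and 3 but 779, 649 and 688 in replicates 1, 4 and 5. LCM20 arrays gave 933, 809, 750 and 1219 and sieved arrays gave 1748, 1350, 919 and 1165 for Echs1. All LCM800 values lay under the sieved ones, while LCM20 overlapped with sieved. Echs1 fell by 1.63 ± 0.44 in LCM800 (adjusted p = 0.00579); in LCM20 the change was −0.44 ± 0.46 and did not pass (95% interval −1.42 to 0.54; adjusted p = 0.453). Without LCM800 replicates 1 to 3 the LCM800 change was −0.86 (adjusted p = 0.0215), and without replicates 4 and 5 it was −2.15 (adjusted p = 0.000800).

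Hadha and Hadhb encode the α and β subunits of the mitochondrial trifunctional protein, an inner membrane complex for long chains. The α subunit carries the hydratase and 3-hydroxyacyl-CoA dehydrogenase activities and the β subunit the thiolase. Their starts lie head to head: in RefSeq on GRCr8 Hadhb starts at base 31907500 of chromosome 6 on the minus strand and Hadha at base 31907801 on the plus strand, 301 bases apart. The interval between both starts is printed because the genes share it while Hadha, and not Hadhb, passed the test against sieved arrays; capitals mark GC boxes (GGGCGG on either strand, so that CCGCCC is its reverse complement).
Hadhb to Hadha interval (chr6:31907501-31907800, plus strand): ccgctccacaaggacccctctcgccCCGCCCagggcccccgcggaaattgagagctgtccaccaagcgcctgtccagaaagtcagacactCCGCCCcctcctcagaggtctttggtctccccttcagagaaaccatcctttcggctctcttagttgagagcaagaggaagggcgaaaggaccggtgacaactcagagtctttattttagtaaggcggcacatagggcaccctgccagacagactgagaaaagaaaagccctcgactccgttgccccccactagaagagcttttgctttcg
The interval held 2 GC boxes and no nuclear receptor half-site (AGGTCA on either strand), and 57% of its bases were G or C.

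Hadha fell in both microdissected groups. Hadha gave 267, 191, 358 and 649 in LCM20 and 566, 521, 690, 299 and 208 in LCM800, against 1676, 1488, 1333 and 1523 in sieved arrays. The highest microdissected value, 690 in LCM800 replicate 3, lay well under the lowest sieved value. Hadha fell by 1.97 ± 0.33 in LCM20 (adjusted p = 0.000222) and fell by 1.68 ± 0.31 in LCM800 (adjusted p = 0.000424). Both calls held in every alternative run, with changes of −2.24 to −1.54 and −2.31 to −1.26.

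Hadhb did not pass in either comparison. It gave 2036, 2483, 1667 and 1834 in LCM20 and 871, 976, 1207, 2388 and 2577 in LCM800, against 2084, 2153, 1926 and 2137 in sieved arrays. LCM800 replicates 1 to 3 lay below every sieved array and replicates 4 and 5 above every one. The SD of Hadhb signal was 352 in LCM20 and 814 in LCM800, against 104 in sieved arrays. The Hadhb change was −0.06 ± 0.31 in LCM20 (95% interval −0.72 to 0.60; adjusted p = 0.886) and −0.49 ± 0.29 in LCM800 (−1.12 to 0.13; adjusted p = 0.170). Without LCM800 replicates 4 and 5 the LCM800 change was −0.99 (adjusted p = 0.000848), and without replicates 1 to 3 it was 0.25 (adjusted p = 0.376). Without replicate 5 alone it was −0.69 and passed (adjusted p = 0.0431).

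Set side by side per array, the subunits separated the LCM800 replicates. The log2 signal of Hadha minus Hadhb, relative to the sieved mean, was −2.21, −2.86, −1.58 and −0.96 in LCM20, and −0.12, −0.38, −0.30, −2.30 and −2.83 in LCM800, against 0.15, −0.06, −0.06 and −0.02 in sieved arrays. LCM800 replicates 1 to 3 lay near the sieved values and replicates 4 and 5 among the LCM20 values. This pair was chosen after its values were seen, so the difference is a description with no test. The Actb 3′ minus 5′ signal also split these arrays, at 2.80, 3.54 and 4.01 in LCM800 replicates 1 to 3 and 1.78 and 1.71 in replicates 4 and 5. The Gapdh 3′ minus 5′ signal did not. It was 1.24, 1.11 and 1.08 in LCM800 replicates 1 to 3, and 2.02 and 0.68 in replicates 4 and 5. The part of either control measure was not tested.

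**Figure D2:**
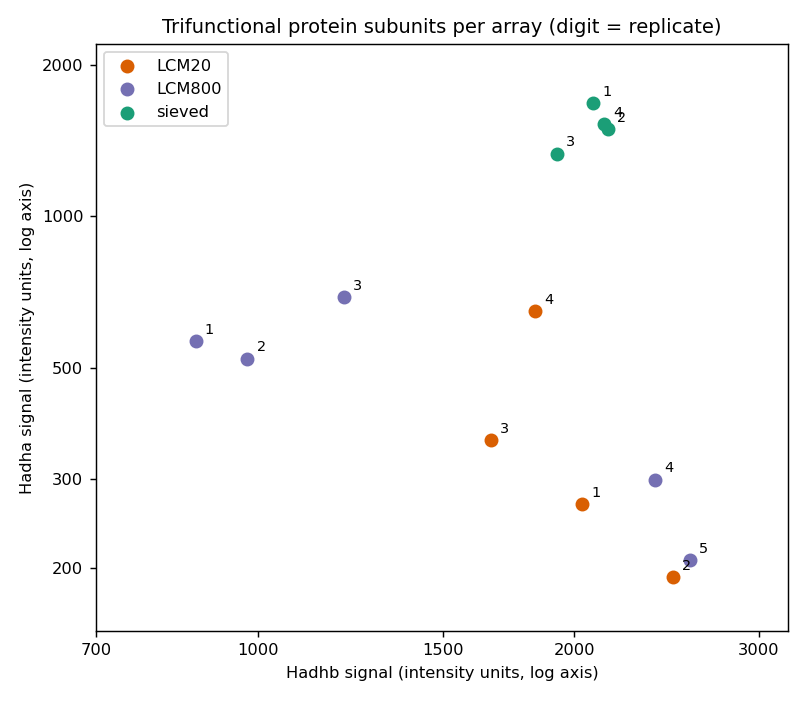
Signal of Hadha (vertical, log axis, intensity units) against signal of Hadhb (horizontal, log axis, intensity units), with 1 point per array, coloured by group and numbered by replicate. The 4 sieved arrays cluster at the upper right, LCM800 replicates 1 to 3 lie at the left with Hadhb from 871 to 1207, and replicates 4 and 5 lie with the LCM20 arrays.

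Acaa2, the mitochondrial 3-ketoacyl-CoA thiolase that ends the cycle, fell in both groups. It gave 824, 435, 902 and 475 in LCM20 and 898, 1000, 752, 620 and 618 in LCM800, against 1768, 1744, 1338 and 1896 in sieved arrays. No microdissected array reached the lowest sieved value. Acaa2 fell by 1.32 ± 0.25 in LCM20 (adjusted p = 0.000603) and fell by 1.07 ± 0.24 in LCM800 (adjusted p = 0.00169), and passed in every alternative run.

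Ehhadh, the peroxisomal bifunctional enzyme with hydratase and dehydrogenase activities and a known PPARα target in rodents, differed most of the 10 probe sets in both comparisons. Its promoter window, up to and just past the RefSeq start, is printed with those of Acadm, a PPARα target with a smaller change, and Cpt2; all are on GRCr8 and read 5′ to 3′, with GC boxes in capitals.
Ehhadh (chr11:92746159-92746458, plus strand): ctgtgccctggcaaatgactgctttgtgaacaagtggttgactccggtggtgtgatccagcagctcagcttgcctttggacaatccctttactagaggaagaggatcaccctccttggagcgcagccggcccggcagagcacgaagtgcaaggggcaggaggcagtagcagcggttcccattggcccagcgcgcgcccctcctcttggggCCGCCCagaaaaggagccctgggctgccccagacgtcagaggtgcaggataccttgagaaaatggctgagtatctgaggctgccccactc
Acadm (chr2:245542815-245543114, minus strand): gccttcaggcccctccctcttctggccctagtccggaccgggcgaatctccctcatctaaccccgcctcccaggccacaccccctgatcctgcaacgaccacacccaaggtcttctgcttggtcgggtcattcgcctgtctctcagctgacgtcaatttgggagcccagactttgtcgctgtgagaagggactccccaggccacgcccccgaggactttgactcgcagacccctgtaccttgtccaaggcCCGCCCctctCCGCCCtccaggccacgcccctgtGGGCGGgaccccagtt
Cpt2 (chr5:127910769-127911068, minus strand): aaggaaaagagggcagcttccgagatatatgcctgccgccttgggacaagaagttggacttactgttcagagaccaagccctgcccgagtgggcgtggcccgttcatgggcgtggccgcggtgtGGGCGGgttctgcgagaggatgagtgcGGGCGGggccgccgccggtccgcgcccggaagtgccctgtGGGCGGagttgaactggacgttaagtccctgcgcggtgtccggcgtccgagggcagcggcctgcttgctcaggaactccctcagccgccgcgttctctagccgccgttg
These held 1, 3 and 3 GC boxes and no AGGTCA on either strand, and 60.7%, 65% and 66.7% of their bases were G or C.

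Promoters were found for 7 of the 9 genes, all but Acadl and Acaa2. A GC box occurred in 6 of 7, Cpt1a being the exception, and in 33.1% of 33469 RefSeq promoters of the same length. The half-site AGGTCA occurred in 2 of 7, Echs1 and Hadhb, and in 16.2% of all. The direct repeat AGGTCANAGGTCA, which contains 2 half-sites, occurred in 0 of 7 and in 0.0538% of all. CCAAT occurred in 2 of 7 and 37.5% of all, and TATAAA in 1 of 7 and 14.2% of all. The windows of Hadha and Hadhb overlap by 200 bases and are not independent. A match describes the letters in the window and not a bound site.

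Ehhadh gave 10.8, 10.2, 19.1 and 28.5 in LCM20 and 29.9, 20.9, 35.5, 46.6 and 12.5 in LCM800, against 939, 888, 360 and 657 in sieved arrays. All microdissected values were below the pseudocount of 65.29. Sieved replicate 3 had the lowest sieved Ehhadh value and the lowest summed proximal tubule signal of its group. This was not particular to Ehhadh. The same array was the lowest sieved one for every other β-oxidation probe set except Cpt2, including Acadl and Hadhb, which did not pass. For Cpt2 it was the highest sieved array, at 297. The part of tubule content in these values was not tested. In the fit with no filter Ehhadh fell by 3.16 ± 0.25 in LCM20 (adjusted p = 5.67e-07) and fell by 2.98 ± 0.23 in LCM800 (adjusted p = 3.94e-07). The call held in every alternative run, while the Ehhadh change was −5.41 in LCM20 and −4.66 in LCM800 with no pseudocount, and −1.76 in LCM20 and −1.70 in LCM800 with 4 times the pseudocount.

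**Figure D3:**
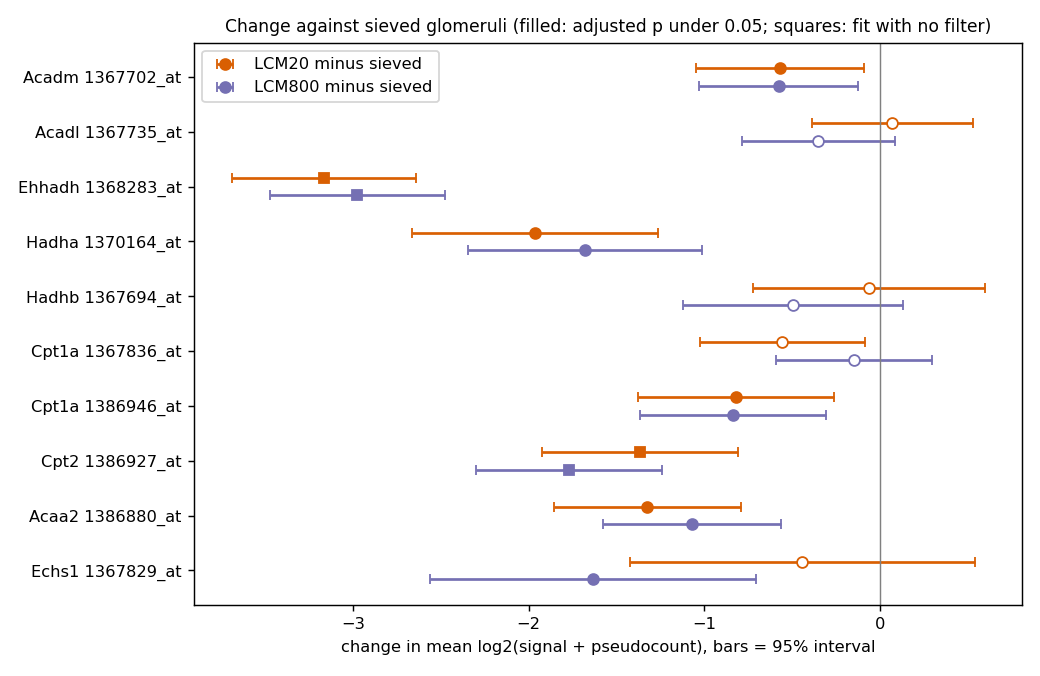
Change of each probe set against sieved arrays, as the difference of mean log2(signal + 65.29) with its 95% interval, for LCM20 and LCM800; filled points passed the test and squares come from the fit with no filter. Ehhadh lies at −3.16 and −2.98, whereas the intervals of Acadl and Hadhb include 0 in both comparisons.

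LCM20 and LCM800 were compared directly to ask whether the groups with different title numbers differ. None of the 8 probe sets passed the limma test, with adjusted p values from 0.191 to 0.991; at an unadjusted p under 0.05 there was 1 of 8, Echs1, and 1952 of 11106 over all. Over all tested probe sets 0.0810% were lower and 0.0720% higher in LCM20, and 3.84% had ranges that did not overlap, beside 0 of the 10 probe sets here. The Echs1 change was 1.19 ± 0.44 (95% interval 0.26 to 2.12; adjusted p = 0.191), and Acadl and Hadhb differed by 0.42 (−0.01 to 0.85) and 0.43 (−0.19 to 1.06). Hadha differed by −0.29 (−0.95 to 0.38); a miss of the threshold does not show that the groups are alike. With LCM800 replicates 4 and 5 left out, 2 of 8 passed: Hadhb was higher in LCM20 by 0.93 (adjusted p = 0.00467) and Echs1 by 1.71 (adjusted p = 0.0109), while 2581 of all probe sets passed, against 17 with every array kept.

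The other genes of fatty acid handling were counted from lists written from general knowledge, 1 probe set per gene. Earlier results of these data were known when the lists were chosen, so the counts are a description and not independent support. Of 67 genes tested, 33 fell and 9 rose in LCM20 and 34 fell and 8 rose in LCM800, with median changes of −0.70 in LCM20 and −0.63 in LCM800, and 0 of 67 passed between LCM20 and LCM800. Over all tested probe sets 19.2% were lower and 26.2% higher in LCM20, and 20.1% lower and 31.8% higher in LCM800. These shares are also the background for the count of each list below. The lower summed proximal tubule signal of both microdissected groups stands beside these counts too. Each gene was read from its brightest probe set. Among the genes named below, Crot, Cyp4a8, Hnf4a, Acaca, Elovl5 and Me1 had 2 tested probe sets each. The dimmer one is not described, so these values hold for 1 probe set and not for the gene.

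Uptake and activation genes bind fatty acids and join them to coenzyme A. Of 11 tested, 6 fell and 2 rose in LCM20 and 7 fell and 2 rose in LCM800. Dbi, the acyl-CoA binding protein, averaged 166 in LCM20 and 215 in LCM800, against 1630 in sieved arrays, and changed by −2.88 in LCM20 and −2.62 in LCM800 (adjusted p = 4.47e-07 and 3.35e-07). Slc27a2, an acyl-CoA synthetase and transporter for very long chains, changed by −2.57 in LCM20 and −2.58 in LCM800, and Acsm2, a medium-chain synthetase, by −1.84 in LCM20 and −2.13 in LCM800. In the opposite direction Slc27a4, a fatty acid transporter, rose by 1.14 in LCM20 and 1.67 in LCM800 and Acsl5, a long-chain synthetase, by 1.92 in LCM20 and 1.62 in LCM800.

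Among the carnitine genes outside the 9, 3 of 6 fell in LCM20 and 2 of 6 in LCM800, and 0 rose. Tmlhe, the first enzyme of carnitine synthesis, averaged 232 in LCM20 and 44.3 in LCM800, against 1230 in sieved arrays, with changes of −2.74 in LCM20 and −3.61 in LCM800 (adjusted p = 0.00112 and 6.09e-05). Crot, the peroxisomal carnitine octanoyltransferase, changed by −1.30 in LCM20 and −1.92 in LCM800.

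Other mitochondrial β-oxidation genes numbered 11, of which 6 fell and 1 rose in LCM20 and 7 fell and 1 rose in LCM800, with medians of −0.85 in LCM20 and −1.40 in LCM800. Acat1, the acetoacetyl-CoA thiolase, averaged 352 in LCM20 and 326 in LCM800, against 1978 in sieved arrays, and changed by −2.31 in LCM20 and −2.39 in LCM800 (adjusted p = 9.57e-07 and 3.40e-07). Etfa, a subunit of the flavoprotein that takes electrons from the dehydrogenases, changed by −1.20 in LCM20 and −2.16 in LCM800, and Hsd17b10, a short-chain hydroxyacyl-CoA dehydrogenase, by −1.61 in LCM20 and −2.09 in LCM800. Eci1, the enoyl-CoA isomerase for unsaturated chains, rose by 1.09 in LCM20 and 0.67 in LCM800.

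Peroxisomal genes outside Ehhadh numbered 13, of which 9 fell and 1 rose in each group, with medians of −1.14 in LCM20 and −0.92 in LCM800. Amacr, a racemase for branched chains, changed by −2.49 in LCM20 and −2.67 in LCM800, Phyh, the phytanoyl-CoA hydroxylase of α-oxidation, by −1.90 in LCM20 and −2.15 in LCM800, and Cat, the peroxisomal catalase, by −2.30 in LCM20 and −1.47 in LCM800. Abcd2, a peroxisomal fatty acid transporter, rose by 0.61 in LCM20 and 0.90 in LCM800.

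Of 11 regulators and PPARα targets 4 fell and 3 rose in LCM20, where 19.2% of all tested probe sets were lower and 26.2% higher, and 3 fell and 3 rose in LCM800, where 20.1% were lower and 31.8% higher; apart from the 4 of 11, these counts lie near the background. The fatty acid ω-hydroxylases Cyp4a3 and Cyp4a8 changed by −3.12 and −2.75 in LCM20 and by −3.08 and −2.56 in LCM800. Cyp4a1 of the same family, added after its values were seen, fell by 1.97 in LCM20 (adjusted p = 0.00381), and its change of −0.26 in LCM800 did not pass (adjusted p = 0.654). Cyp4a1 is 1 of the 4 counted as lower in LCM20. Hnf4a, a transcription factor that is also in the proximal tubule list, changed by −2.08 in LCM20 and −1.62 in LCM800. Ppard, a receptor related to PPARα, rose by 0.80 in LCM20 and 1.23 in LCM800, Angptl4, a lipoprotein lipase inhibitor, by 0.92 in LCM20 and 1.25 in LCM800 and Ucp2, a mitochondrial carrier, by 0.72 in LCM20 and 1.59 in LCM800.

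The only ketone body gene tested, Oxct1, which activates acetoacetate, changed by −1.38 in LCM20 and −1.98 in LCM800. Of 14 fatty acid synthesis genes 4 fell and 2 rose in LCM20, where 19.2% of all tested probe sets were lower and 26.2% higher. For LCM800, 5 fell and 1 rose, where 20.1% were lower and 31.8% higher. The medians of this list were −0.37 in LCM20 and −0.14 in LCM800. Acaca, the acetyl-CoA carboxylase whose product inhibits Cpt1a, rose by 0.91 in LCM20 and 1.42 in LCM800 (adjusted p = 0.0138 and 0.000372). Elovl5, a fatty acid elongase named outside the rule used for most genes, rose by 1.18 in LCM20. Its change of 0.31 in LCM800 did not pass. Fads2, a desaturase, changed by −1.48 in LCM20 and −1.14 in LCM800, and Me1, which makes NADPH for synthesis, fell by 1.33 in LCM800 with a change of −0.70 that did not pass in LCM20 (adjusted p = 0.0887).

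**Figure D4:**
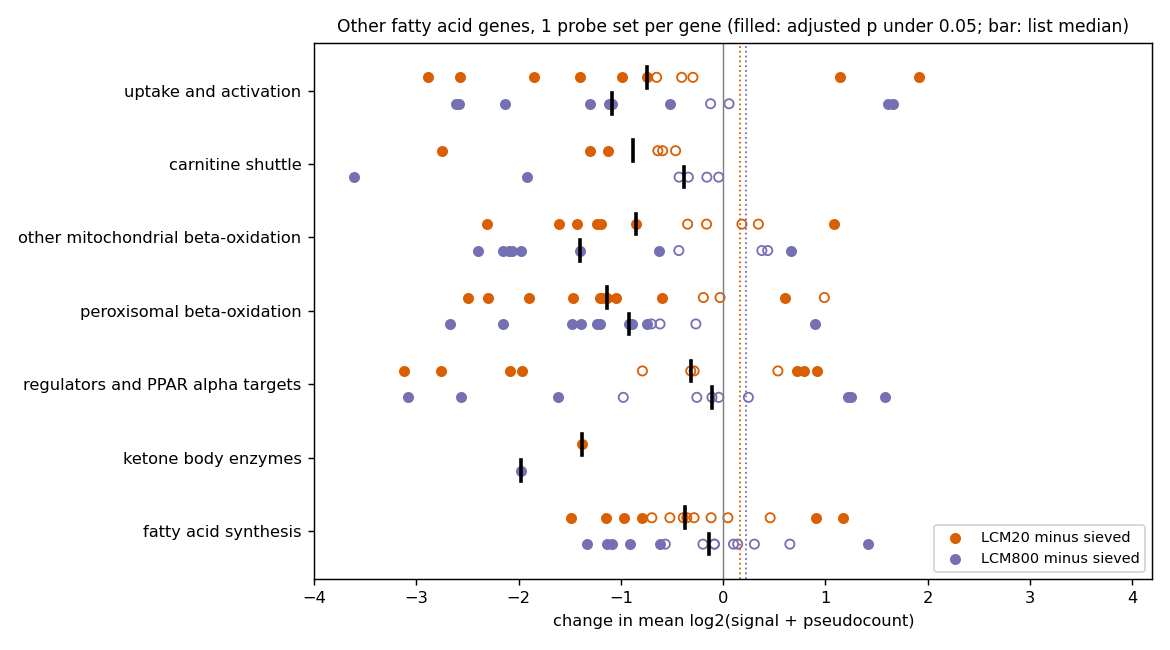
Change of the other fatty acid genes against sieved arrays, as the difference of mean log2(signal + 65.29), with 1 point per gene, for LCM20 and LCM800 in each list; filled points passed the test, black bars are list medians and dotted lines the medians of all tested probe sets (0.17 and 0.22). Synthesis genes have medians of −0.37 and −0.14, and other mitochondrial genes −0.85 and −1.40.

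The probe sets whose profile over the 13 arrays was closest to the mean profile of the 8 tested ones were those of Mydgf, Ciao2a, Vps52, Vkorc1, Inpp1 and Hnrnpu. Their root mean square difference in centred log2 signal was 0.110, 0.127, 0.144, 0.151, 0.154 and 0.162. The 8 probe sets themselves ranged from 0.175 for Acadm to 0.771 for Echs1. The 6 genes were picked as the closest of all tested probe sets, so their small differences follow from that choice, and Ehhadh and Cpt2 did not enter the mean profile.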

How the data were processed

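Glomerular RNA of 13 samples in 3 groups, mapped by title, was measured on one-colour rat arrays. The deposited values are linear intensity signals, made by the authors with MAS5 per the submitters' processing notes; the version and scaling settings are not given in the sources used here. The mean of each array, with 2% of values at each end left out, was about 500, so no further normalization was applied. Symbols came from the platform annotation (12789 probe sets with 1 symbol), and sequences from RefSeq (GRCr8). No probe positions were used.

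Signals were taken as log2(signal + 65.29), the pseudocount being the 20th percentile of all deposited signals. After removal of 57 control probe sets and of the lowest 30% by mean log2, 11106 were left. The 3 groups were fitted together with limma 3.58.1 (lmFit and eBayes with trend, R 4.3.3), with no covariate and Benjamini-Hochberg adjustment at 0.05; a fit with no filter covered 15866 probe sets. The fit was tested on simulated data. Each limma p-value sets a difference of group means against the spread between arrays, estimated over the 3 groups together. That shared estimate was used although spreads could differ. For Hadhb the log2 SD was 0.70 in LCM800, 0.24 in LCM20 and 0.07 in sieved arrays. The 3′ minus 5′ controls were compared by exact permutation tests.

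Besides the 9 genes, the naming rule takes from each other list the 3 largest changes past the test in LCM800 against sieved and those changed opposite to most of their list, and the 6 closest profiles. Cyp4a1, Elovl5 and Pck1 were named outside this rule. A gene of a list was represented by its brightest probe set. Genes and lists were chosen with earlier results of these data known. Alternatives were other normalizations, pseudocounts, filters and fits, array weights, a block for the replicate number, and leaving out arrays; leaving out LCM800 replicates 4 and 5, or 1 to 3, was chosen after seeing the data. Same-numbered samples deviated together with correlations of −0.24 to 0.23, so the numbers were not taken as pairs. With so few arrays in a group such correlations cannot show that pairing is absent.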

Additional observations from a re-analysis of the deposited data

Results flagged for a closer look

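Among 30 combinations of probe set and group, 3 held an array far from the others, where chance gives about 1 in 20. Acadl in LCM800 replicate 1 was at 525, below 814 to 960 in the other LCM800 arrays. Cpt1a (1386946_at) in sieved replicate 3 was at 1252, below 1729 to 1844 in the other sieved arrays, and this replicate also correlated less with its group over all genes. Cpt2 in sieved replicate 4 was at 221, below 284 to 297 in the other sieved arrays.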

How the results depend on the processing

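Over 30 member results, 588 values were computed under the alternatives: 532 kept direction and side of the threshold, 21 lost the call, 14 gained it and 21 reversed. Against sieved, Hadha, Acaa2, Ehhadh, Cpt2 and, in LCM800, Echs1 kept their calls in every alternative run. The count of β-oxidation probe sets past the test in LCM20 minus sieved ran from 2 to 5 with 1 array left out (2 without sieved replicate 4, LCM20 replicate 1 or LCM20 replicate 2). For LCM20 minus LCM800 it was 1 with array weights and 2 without LCM800 replicates 4 and 5, where the wider pathway count was 6 and 21; with 1 array left out the wider count ran from 0 to 2 (2 without LCM800 replicate 4). With no filter the member counts were 6 for LCM20, 7 for LCM800 and 0 between them, and wider counts against sieved were 31 of 49 genes tested with a stricter filter on low signals and 50 of 67 with array weights, for each group.

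Some values reversed. LCM20 minus LCM800 became −0.034 for Acadm with quantile normalization, and for Cpt1a 1386946_at −0.17 with array weights and −0.27 without LCM800 replicates 4 and 5; Acadl in LCM20 minus sieved became −0.050 with array weights. Without LCM800 replicates 1 to 3, Hadhb in LCM800 minus sieved was 0.25, and LCM20 minus LCM800 was −0.31 for Hadhb, −0.24 for Acadm, 0.35 for Hadha and 0.021 for Acaa2. With 1 array left out, LCM20 minus sieved ran from −0.025 to 0.15 for Acadl and −0.17 to 0.019 for Hadhb, and LCM20 minus LCM800 from −0.074 to 0.12 for Acadm and −0.15 to 0.16 for Cpt1a 1386946_at. The cause was not tested.

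The replicate numbers were not taken as pairs, and no label says whether they mark the same rat. With the replicate block, counts were 3 for LCM20 and 4 for LCM800 against sieved and 0 between them; Acadm no longer passed and Cpt1a 1386946_at in LCM20 minus LCM800 was −0.15, as LCM800 replicate 5 drops out of that fit.

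For the 3′ minus 5′ difference from sieved, 4 times the pseudocount gave 1.47 for Actb in LCM800, 0.83 for Actb in LCM20 and 0.43 for Gapdh in LCM800, none past the threshold. With 1 array left out the ranges were 1.91 to 2.49, 1.09 to 1.41 and 0.50 to 0.84, and −0.027 to 1.07 for Gapdh in LCM20 (−0.027 without LCM20 replicate 4, 1.07 and past the threshold without LCM20 replicate 2); without any 1 sieved array the 3 calls no longer passed. Signal over background limits Ehhadh and Cpt2, whose microdissected values are mostly under the pseudocount.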
